A study of Homo sapiens with 18 samples.

Results

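Tubulin isotypes are the near-identical proteins that pair as alpha and beta subunits to build microtubules. The 9 genes described here are the alpha-tubulin genes TUBA1A, TUBA1B and TUBA1C and the beta-tubulin genes TUBB, TUBB2A, TUBB2B, TUBB3, TUBB4B and TUBB6. They were found by symbol in both count tables, as 9 of 39368 genes. All 9 were measured in every library, and all 9 passed the filter on low counts in each line.

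RNA sequencing of ribosome-depleted total RNA was carried out in BE2C and Kelly, which are established human neuroblastoma cell lines with an amplified MYCN oncogene. In each line, cells carried the short hairpin RNA shAhR-1 or shAhR-2, both directed against AHR, or the control vector pLKO-GFP. That makes 6 groups of 3 libraries, 18 in all: BE2C with shAhR-1, with shAhR-2 and with pLKO-GFP, and Kelly with the same 3. The series title concerns whether the aryl hydrocarbon receptor, the ligand-activated transcription factor that AHR encodes, promotes dedifferentiation of such cells. The labels name no further treatment, clone or time point for any group. pLKO is a lentiviral vector. Nothing in the labels says that the 3 libraries of a group were separate cultures, so p-values cover the spread between these libraries only, which may be technical.

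The targeted gene was scarce. In BE2C, AHR had 8, 0 and 0 counts with shAhR-1 and 0, 0 and 0 with shAhR-2, against 4, 4 and 6 in controls, too few to be tested. In Kelly, the 3 libraries labelled shAhR-1 held 51 AHR counts in all and the shAhR-2 libraries 4, against 59 in controls. On the library-size scale those Kelly libraries had 0.533, 0.297 and 0.549 CPM with the label shAhR-1 and 0, 0.0948 and 0 CPM with shAhR-2, against 0.0905, 0.640 and 0.771 CPM in controls, so the first control library overlapped the shAhR-2 group. The log2 fold change was −0.10 ± 0.54 (SE; adjusted p = 0.889) in the Kelly libraries labelled shAhR-1 and −3.84 ± 0.81 (adjusted p = 3.41e-05) with shAhR-2, by the Benjamini-Hochberg adjusted quasi-likelihood test of edgeR. A fall of AHR was therefore shown in Kelly with shAhR-2 and not with the hairpin labelled shAhR-1 in either line, and directions given for shAhR-1 go by that label.

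Libraries held 32799682 to 45469353 counts. The first BE2C shAhR-2 library stood apart from the other pair of its group, with a chi-square per gene of 24.8 and 27.2 against them, where all other pairs of replicates gave 2.91 to 7.35. Without that library all 9 members kept their calls and directions with shAhR-2 against control in BE2C, 2 higher and 7 lower. Mitochondrial genes took 24.3 to 24.9% of counts in BE2C with shAhR-1 and 20.5 to 25.1% with shAhR-2, against 18.8 to 19.4% in BE2C controls. In Kelly the same share was 17.4 to 17.7% in libraries labelled shAhR-1 and 15.2 to 15.8% with shAhR-2, against 14.5 to 15.6% in controls. All 10 neuroblastoma markers examined were detected in every group, while the summed level of the 8 leukocyte markers was at most 1.07 CPM (counts scaled to library size) in any library.

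Microtubules are polymers of alpha and beta tubulin that form the mitotic spindle of dividing cells and the stable tracks of axons and dendrites. Differentiating neurons are known to make more of some isotypes, among them TUBA1A, the main alpha-tubulin of postmitotic neurons, TUBB2A, TUBB2B and TUBB3, the beta-tubulin stained as a neuronal marker. TUBA1B, TUBA1C, TUBB, TUBB4B and TUBB6 are made in many cell types, dividing cells among them. Those 4 are called neuronal isotypes below and those 5 general isotypes.

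Most isotypes were lower with either hairpin, and the median change lay further below 0 among the general ones. In BE2C with shAhR-1, 7 of 9 members were called lower and none higher, where 27.1% of the 15732 genes tested were called lower and 25.2% higher. With shAhR-2 in BE2C, 7 were called lower and 2 higher, against 37.2% and 38.0% of all genes. The Kelly libraries labelled shAhR-1 had 7 members lower and none higher, against 31.0% lower and 29.6% higher of 15871 genes tested. Kelly with shAhR-2 had 7 lower and 2 higher, against 38.2% and 37.2%. A gene was called at an adjusted p below 0.05 by edgeR's quasi-likelihood test, Benjamini-Hochberg adjusted over all genes tested in that line.

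The median changes of the 2 classes were described without a test. The median log2 fold change of the 5 general isotypes in BE2C was −0.65 with shAhR-1 and −0.80 with shAhR-2, where the 4 neuronal isotypes had medians of −0.38 and −0.25. In Kelly the general isotypes had medians of −0.27 in libraries labelled shAhR-1 and −1.12 with shAhR-2, and the neuronal isotypes −0.14 and −0.06. The median of all genes lay between −0.01 and 0.03 in these 4 comparisons. TUBA1B, TUBB, TUBB2A, TUBB4B and TUBB6 were each called lower in all 4, as were 8.88% of the 14680 genes tested in both lines. The comparisons within a line share their 3 control libraries. Falls of at least 1 on the log2 scale were found with shAhR-2 for TUBA1B and TUBB2B in BE2C, as for 9.48% of genes there, and for TUBA1B, TUBA1C and TUBB4B in Kelly, as for 12.7%.

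**Figure D1:**
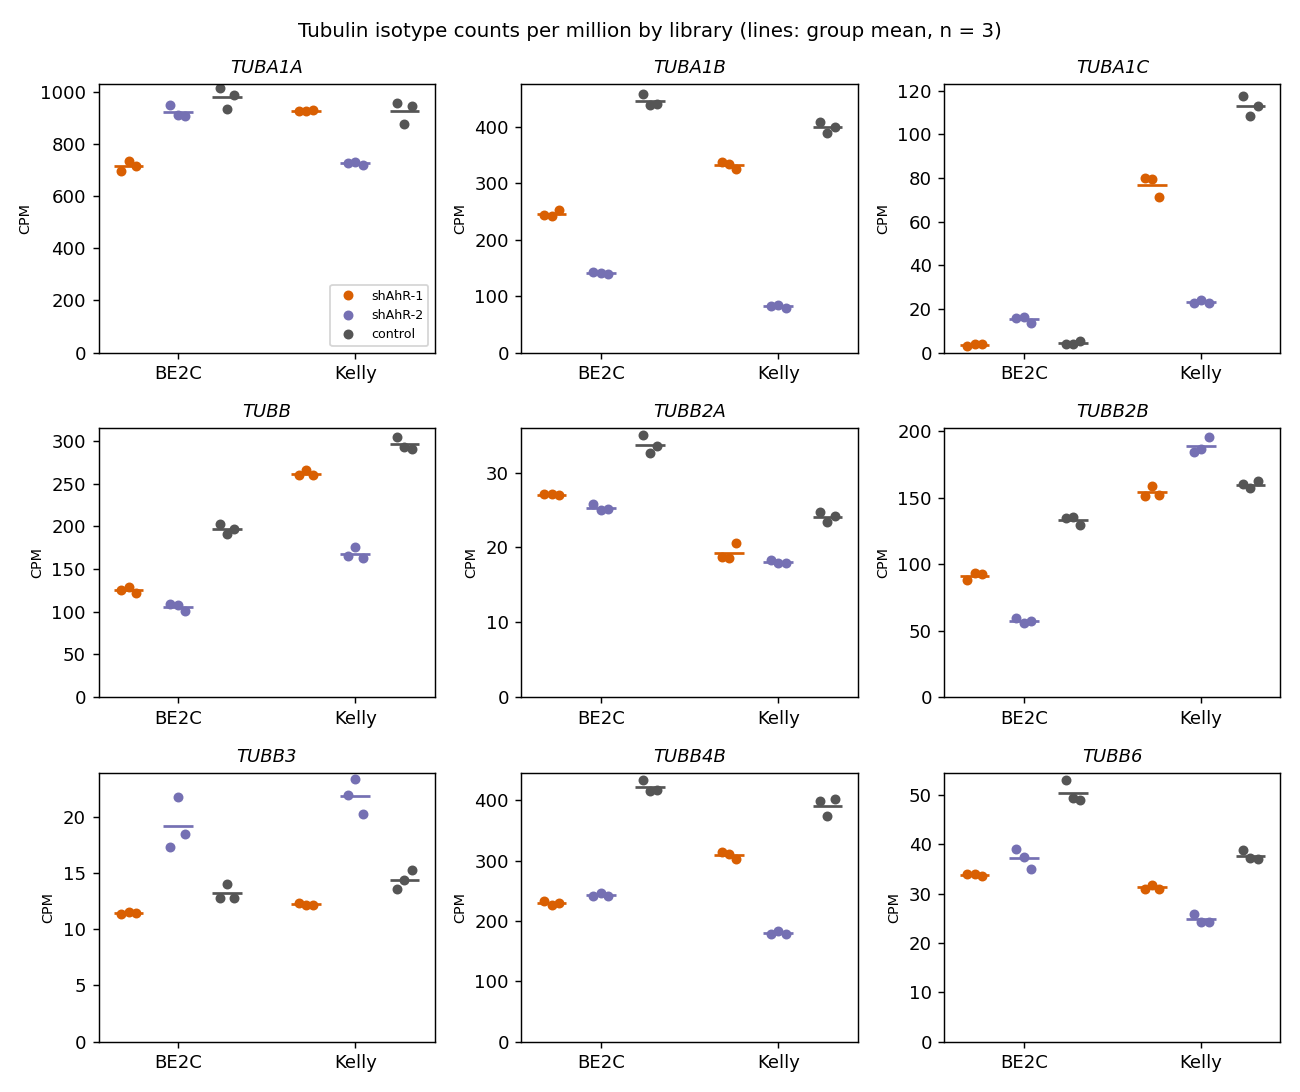
CPM (counts scaled to library size) of each tubulin isotype in each library (points, with horizontal lines at the group means, n = 3), by line and group, on linear axes that start at 0. TUBA1B lay at 80.0 to 84.2 CPM in Kelly with shAhR-2 and at 139 to 144 CPM in BE2C with shAhR-2, below every other library, while TUBB3 was highest with shAhR-2 in both lines.

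Among the general isotypes, TUBA1B (chr12:49127782-49131397, minus strand, GRCh38, 4 exons in its principal transcript) is a widely made alpha-tubulin and fell with both hairpins in both lines. In BE2C it had 243, 242 and 252 CPM with shAhR-1 and 144, 142 and 139 CPM with shAhR-2, against 458, 438 and 441 CPM in controls. In Kelly it had 338, 335 and 326 CPM in libraries labelled shAhR-1 and 82.7, 84.2 and 80.0 CPM with shAhR-2, against 409, 389 and 399.7 CPM in controls. No 2 groups of a line overlapped, and shAhR-2 was the lowest group in both. The log2 fold change in BE2C was −0.86 ± 0.030 with shAhR-1 and −1.66 ± 0.031 with shAhR-2. In Kelly it was −0.26 ± 0.028 in libraries labelled shAhR-1 and −2.28 ± 0.031 with shAhR-2, and edgeR (quasi-likelihood, Benjamini-Hochberg adjusted) gave adjusted p-values from 1.10e-48 to 1.60e-11 over the 4 comparisons. In these bulk libraries fewer cells with a transcript and less of it per cell cannot be told apart.

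TUBB4B (chr9:137241213-137243707, plus strand), a beta-tubulin made broadly and prominent in cilia, followed the same order in Kelly but not in BE2C. In BE2C it had 233, 226 and 230.2 CPM with shAhR-1 and 242, 246 and 241 CPM with shAhR-2, against 433, 416 and 416 CPM in controls. Kelly cells had 314, 311 and 303 CPM in libraries labelled shAhR-1 and 178, 184 and 179 CPM with shAhR-2, against 398, 373 and 402 CPM in controls. Every hairpin library lay below every control of its line. On the log2 scale the BE2C change was −0.88 ± 0.029 with shAhR-1 and −0.80 ± 0.029 with shAhR-2. In Kelly it was −0.34 ± 0.029 in libraries labelled shAhR-1 and −1.12 ± 0.030 with shAhR-2, all 4 past the threshold.

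TUBB (chr6:30720201-30725426, plus strand), the class I beta-tubulin of most dividing cells, lies in the MHC region, for which the genome build also has alternate sequences. Whether these took part of its reads was not tested, and that would bear on its level, rank and share. TUBB averaged 126 ± 3.2 CPM with shAhR-1 and 106 ± 4.3 CPM with shAhR-2 in BE2C, against 197 ± 5.5 CPM in controls (SD, n = 3 each). In Kelly it averaged 262 ± 3.4 CPM in libraries labelled shAhR-1 and 168 ± 6.9 CPM with shAhR-2, against 296 ± 7.8 CPM in controls. Its log2 fold changes were −0.65 and −0.89 in BE2C and −0.18 and −0.82 in Kelly, with shAhR-1 first and an SE of at most 0.036. TUBB6 (chr18:12307669-12344320, plus strand), the minor class V beta-tubulin, averaged 33.8 ± 0.17 CPM with shAhR-1 and 37.1 ± 2.1 CPM with shAhR-2 in BE2C, against 50.5 ± 2.2 CPM in controls. In Kelly TUBB6 averaged 31.2 ± 0.51 CPM in libraries labelled shAhR-1 and 24.8 ± 0.93 CPM with shAhR-2, against 37.7 ± 0.96 CPM in controls. Its log2 fold changes were −0.58 and −0.44 in BE2C and −0.27 and −0.60 in Kelly, with an SE of at most 0.056. Both genes passed the threshold in all 4 comparisons, with no hairpin library reaching the controls of its line.

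The remaining general isotype, TUBA1C (chr12:49188736-49274603, plus strand), an alpha-tubulin of many tissues, moved in opposite directions in the 2 lines with shAhR-2. In BE2C it had 3.20, 4.002 and 3.84 CPM with shAhR-1 and 15.7, 16.5 and 13.4 CPM with shAhR-2, against 3.91, 3.90 and 5.30 CPM in controls. Kelly libraries held 79.99, 79.7 and 71.3 CPM in libraries labelled shAhR-1 and 22.7, 24.2 and 22.9 CPM with shAhR-2, against 118, 108 and 113 CPM in controls. With shAhR-2 all 3 BE2C libraries lay above the BE2C controls and all 3 Kelly libraries far below the Kelly controls, so the means with shAhR-2 were 15.2 CPM in BE2C and 23.3 CPM in Kelly, each line scaled on its own. The log2 fold change with shAhR-2 was 1.798 ± 0.12 in BE2C (adjusted p = 9.04e-15) and −2.28 ± 0.047 in Kelly (adjusted p = 6.19e-41), by the Benjamini-Hochberg adjusted quasi-likelihood test of edgeR. In BE2C, 18.3% of genes rose by at least 1 on the log2 scale with shAhR-2, and of the members TUBA1C was the 1 to do so. With shAhR-1 it was not called in BE2C (−0.25 ± 0.14, adjusted p = 0.138), where its libraries overlapped the controls and the value was −0.09 without the third control library (adjusted p = 0.654, edgeR), and it fell by 0.55 on the log2 scale (SE 0.042) in the Kelly libraries labelled shAhR-1. The BE2C values rest on 452 counts with shAhR-1 and 2082 with shAhR-2, against 540 in controls, each summed over 3 libraries.

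TUBA1C has 3 annotated starts in the RefSeq table for GRCh38.p14, and the window around the start nearest its principal transcript is printed because the gene was scarce in BE2C and plentiful in Kelly. It runs from 250 bases before to 50 after the start (chr12:49264832-49265131, plus strand), and the capitals mark CACGTG, the palindromic E-box bound by the MYC family.
TUBA1C: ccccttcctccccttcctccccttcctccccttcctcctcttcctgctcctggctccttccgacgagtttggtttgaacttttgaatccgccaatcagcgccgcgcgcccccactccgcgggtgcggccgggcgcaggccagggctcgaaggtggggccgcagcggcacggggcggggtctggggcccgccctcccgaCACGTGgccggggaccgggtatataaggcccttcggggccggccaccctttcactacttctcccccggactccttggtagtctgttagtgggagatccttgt
This motif occurred in 7.26% of 35116 windows of that length over all genes. Among the other windows of the members, the second of TUBB also held it. Whether the motif bears on the difference between the lines was not tested. The window held no GCGTG on either strand, the core letters bound by the receptor with its partner ARNT, which 36.5% of all windows hold.

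TUBA1A (chr12:49184796-49189324, minus strand), the alpha-tubulin of migrating and growing neurons, lies beside TUBA1C and changed with 1 hairpin more than with the other in each line. In BE2C it had 698, 736 and 717 CPM with shAhR-1 and 948, 913 and 905 CPM with shAhR-2, against 1015, 934 and 988 CPM in controls. The Kelly libraries had 926, 928 and 931 CPM in libraries labelled shAhR-1 and 726, 732 and 721 CPM with shAhR-2, against 958, 878 and 946 CPM in controls. It lay wholly below its controls with shAhR-1 in BE2C and with shAhR-2 in Kelly, and overlapped its controls in the other 2 comparisons. For TUBA1A in BE2C the log2 fold change was −0.45 ± 0.030 with shAhR-1 (adjusted p = 1.29e-14) and −0.09 ± 0.030 with shAhR-2 (adjusted p = 0.00896, edgeR's quasi-likelihood test, Benjamini-Hochberg adjusted). The second call was lost with a mean CPM filter of at least 1 (−0.03, adjusted p = 0.367) and without the first control library (−0.07, adjusted p = 0.0557) in the same test of edgeR. In Kelly it was 0.00 ± 0.027 in libraries labelled shAhR-1 (adjusted p = 0.977, edgeR) and −0.35 ± 0.027 with shAhR-2 (adjusted p = 1.01e-16, edgeR).

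TUBB2A (chr6:3153669-3157526, minus strand) and TUBB2B (chr6:3224261-3231730, minus strand) are neighbouring class II beta-tubulins of the brain, and TUBB2B is known for its part in neuronal migration. Of the stretches of 100 bases in the TUBB2A principal transcript, 54.4% occur unchanged in TUBB2B, so their reads can be hard to tell apart. Their RefSeq promoter windows (GRCh38.p14, 250 bases before to 50 after the start, both on the minus strand) are printed because they are the members whose starts hold the core letters of the receptor's site near a single annotated start. TUBB2A is at chr6:3157495-3157794 and TUBB2B at chr6:3227604-3227903, and capitals mark CACGC, which is GCGTG on the other strand.
TUBB2A: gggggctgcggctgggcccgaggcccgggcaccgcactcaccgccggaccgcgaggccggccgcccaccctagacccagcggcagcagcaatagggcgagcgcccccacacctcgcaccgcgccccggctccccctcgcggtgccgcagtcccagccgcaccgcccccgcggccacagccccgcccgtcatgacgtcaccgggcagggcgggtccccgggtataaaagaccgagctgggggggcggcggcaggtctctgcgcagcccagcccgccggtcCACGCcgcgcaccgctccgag
TUBB2B: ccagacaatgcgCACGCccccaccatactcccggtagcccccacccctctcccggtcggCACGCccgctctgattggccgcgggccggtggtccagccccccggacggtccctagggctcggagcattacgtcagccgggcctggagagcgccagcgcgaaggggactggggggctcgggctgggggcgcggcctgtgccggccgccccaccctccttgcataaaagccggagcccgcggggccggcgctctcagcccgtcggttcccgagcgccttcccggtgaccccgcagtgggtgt
TUBB2A held the motif 1 time and TUBB2B 2 times, and neither held CACGTG. Of the 14 windows listed for the 9 genes, both windows of TUBB also held GCGTG, and the other 10 did not.

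Despite that likeness, TUBB2B changed in ways TUBB2A did not. TUBB2B in BE2C had 88.1, 93.4 and 92.5 CPM with shAhR-1 and 59.6, 55.4 and 57.5 CPM with shAhR-2, against 135, 135 and 129 CPM in controls. In Kelly it had 151, 159 and 152 CPM in libraries labelled shAhR-1 and 184, 187 and 195 CPM with shAhR-2, against 160.2, 157 and 162 CPM in controls. Its BE2C groups were fully apart with shAhR-2 lowest, whereas in Kelly shAhR-2 was the highest group and the libraries labelled shAhR-1 overlapped the controls. The log2 fold change in BE2C was −0.54 ± 0.039 with shAhR-1 and −1.21 ± 0.040 with shAhR-2 (adjusted p = 1.72e-23, edgeR (quasi-likelihood, Benjamini-Hochberg adjusted)). In Kelly it was −0.05 ± 0.032 in libraries labelled shAhR-1 (adjusted p = 0.147, edgeR) and 0.24 ± 0.031 with shAhR-2 (adjusted p = 1.71e-09, edgeR). The pseudogene TUBB2BP1, which shares sequence with both genes, had a log2 fold change of 1.71 ± 0.48 in Kelly with shAhR-2, on 98 counts against 28 in controls. TUBB2B held 24075 counts in the same libraries against 19562 in controls, and the part of TUBB2BP1 in the TUBB2B value was not tested.

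TUBB2A gave nearly equal changes in the 2 lines. In BE2C it averaged 27.1 ± 0.099 CPM with shAhR-1 and 25.3 ± 0.39 CPM with shAhR-2, against 33.7 ± 1.2 CPM in controls (SD, n = 3 each). In Kelly it averaged 19.3 ± 1.1 CPM in libraries labelled shAhR-1 and 18.1 ± 0.25 CPM with shAhR-2, against 24.1 ± 0.68 CPM in controls. The log2 fold change was −0.32 with shAhR-1 and −0.42 with shAhR-2 in BE2C (SE 0.058 each), and the same 2 values were found in Kelly (SE 0.067 each). All 4 passed the threshold, and no hairpin library overlapped its controls.

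TUBB3 (chr16:89921392-89938761, plus strand), the class III beta-tubulin found mainly in neurons, was the only member of the 9 to rise with shAhR-2 in both lines. In BE2C it had 11.4, 11.5 and 11.4 CPM with shAhR-1 and 17.3, 21.7 and 18.4 CPM with shAhR-2, against 12.8, 13.99 and 12.8 CPM in controls. In Kelly it had 12.4, 12.1 and 12.2 CPM in libraries labelled shAhR-1 and 21.9, 23.3 and 20.2 CPM with shAhR-2, against 13.5, 14.4 and 15.3 CPM in controls. In each line every shAhR-2 library lay above, and every shAhR-1 library below, all 3 controls. With shAhR-2 the log2 fold change was 0.54 ± 0.086 in BE2C (adjusted p = 1.13e-06) and 0.60 ± 0.075 in Kelly (adjusted p = 5.48e-10), by the Benjamini-Hochberg adjusted quasi-likelihood test of edgeR. With shAhR-1 it was −0.21 ± 0.090 in BE2C (adjusted p = 0.0510, edgeR) and −0.24 ± 0.080 in the Kelly libraries so labelled (adjusted p = 0.00963, edgeR). The BE2C value passed the threshold with RLE size factors (adjusted p = 0.0451, edgeR) and without mitochondrial genes (adjusted p = 0.0481, edgeR), and the Kelly call was lost without the third control library (adjusted p = 0.0584, edgeR).

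The TUBB3 values carry a limit from the annotation. In GENCODE 29, the protein-coding gene AC092143.1 shares 1584 bases with TUBB3 exons on the same strand, 89.5% of the TUBB3 principal transcript, and how the authors counted reads that fall in both is not given in the sources used here. No row of the counts bears the name AC092143.1. MC1R, the melanocortin receptor gene next to TUBB3, had log2 fold changes of −0.28 with shAhR-1 and 0.34 with shAhR-2 in BE2C. In Kelly it had −0.86 in libraries labelled shAhR-1 and −0.14 with shAhR-2, the last not called. Its part in the TUBB3 values was not tested. The sum of glial markers was higher in the same groups as TUBB3: 10 Schwann cell and glial genes, 8 of them detected there, summed to 71.0 to 79.6 CPM in BE2C with shAhR-2 and 74.6 to 80.1 CPM in Kelly with shAhR-2, against 21.9 to 25.5 CPM in BE2C controls and 32.1 to 33.5 CPM in Kelly controls. With shAhR-1 they summed to 25.4 to 27.3 CPM in BE2C and 17.9 to 21.4 CPM in the Kelly libraries so labelled. Of 7 glial genes tested in BE2C, 5 were called higher with shAhR-2 and none lower, where 38.0% of all genes were higher and 37.2% lower. Of 6 tested in Kelly, 5 were called higher with shAhR-2 and 1 lower, against 37.2% and 38.2%. The 10 neuroblastoma markers summed to 2896 to 2924 CPM in BE2C with shAhR-2 and 6336 to 6401 CPM in Kelly with shAhR-2, against 5505 to 5669 CPM in BE2C controls and 10317 to 11012 CPM in Kelly controls. Their sums with shAhR-1 were also below controls, at 4964 to 5020 CPM in BE2C and 5586 to 5713 CPM in the Kelly libraries so labelled. Of 12 fibroblast markers, 11 were detected in BE2C with shAhR-2, summing to 413 to 430.4 CPM against 206 to 212 CPM in controls, and 10 in Kelly with shAhR-2, summing to 334 to 344 CPM against 319 to 353 CPM. The fibroblast sums with shAhR-1 were 242 to 253 CPM in BE2C and 273 to 296 CPM in the Kelly libraries so labelled. Of 10 fibroblast genes tested in BE2C, 8 were called higher with shAhR-2 and 1 lower, against 38.0% and 37.2% of all genes. Of 9 tested in Kelly, 2 were called higher with shAhR-2 and 3 lower, against 37.2% and 38.2%. The glial gene CDH19 was at 0 in all 6 groups, and FABP7 in all but Kelly controls. The fibroblast collagen gene COL1A2 was at 0 in the shAhR-2 groups only, and FAP was detected in BE2C with shAhR-2 only. The part of other cell types in the values was not tested.

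**Figure D2:**
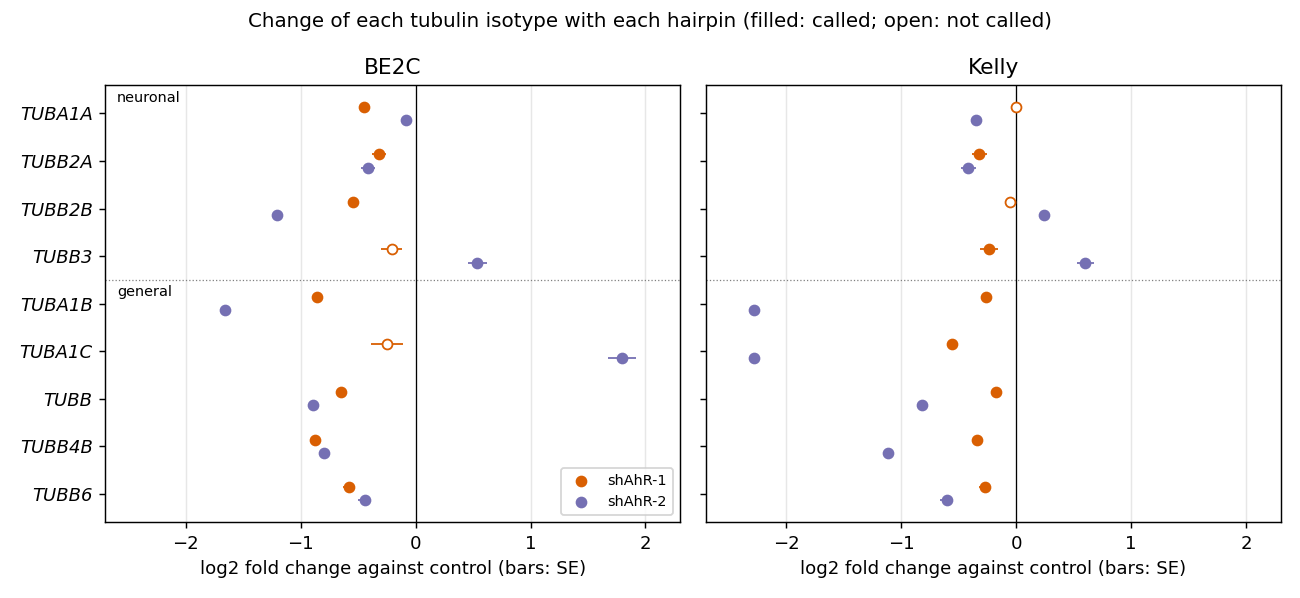
Log2 fold change of each isotype against the control vector of its line (points, bars are SE), with shAhR-1 and shAhR-2 in BE2C and Kelly, the neuronal isotypes above the dotted line and the general isotypes below it. Filled points passed an adjusted p of 0.05, and with shAhR-2 TUBA1C lies at 1.798 in BE2C and at −2.28 in Kelly.

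The hairpins were also compared with each other, shAhR-1 over shAhR-2. In BE2C, 3 members were higher and 5 lower with shAhR-1, where 35.9% of all genes were called higher and 36.5% lower. TUBA1B (0.80 ± 0.031), TUBB2B (0.67 ± 0.040) and TUBB (0.25 ± 0.036) were higher with shAhR-1 on the log2 scale. TUBA1C (−2.05 ± 0.13), TUBB3 (−0.75 ± 0.087) and TUBA1A (−0.36 ± 0.030) were lower. TUBB6 (−0.13 ± 0.055) and TUBB4B (−0.08 ± 0.029) were also called lower, with calls that depended on single libraries: TUBB6 lost its call without the first shAhR-2 library (−0.09, adjusted p = 0.168, edgeR), and both lost it without the second shAhR-1 library (adjusted p = 0.0698 and 0.104, edgeR), leaving 3 members lower. In Kelly, 6 members were higher and 2 lower in the libraries labelled shAhR-1, against 39.3% and 38.2% of all genes. All 5 general isotypes were among the 6, with log2 differences between 0.33 for TUBB6 and 2.02 for TUBA1B, and the sixth was TUBA1A at 0.35. The neuronal isotypes TUBB3 (−0.84 ± 0.077) and TUBB2B (−0.29 ± 0.032) were lower. TUBB2A did not pass the threshold in either line, with 0.10 ± 0.059 in BE2C and 0.10 ± 0.069 in Kelly.

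The change with each hairpin was next compared between the lines, as the log2 change in BE2C less that in Kelly. With shAhR-1, 6 members had a lower value in BE2C and none a higher one, where 18.2% of 17136 genes were called lower and 17.5% higher. These were TUBA1B (−0.59), TUBB4B (−0.53), TUBB2B (−0.48), TUBB (−0.46), TUBA1A (−0.44) and TUBB6 (−0.30), with SE between 0.042 and 0.076. With shAhR-2, 4 members were called higher in BE2C and 1 lower, against 28.8% and 25.8% of all genes. TUBA1C differed by 4.06 ± 0.11 (adjusted p = 1.93e-32) and TUBB2B by −1.47 ± 0.051 (adjusted p = 1.16e-28), by edgeR's quasi-likelihood test, Benjamini-Hochberg adjusted. TUBA1B (0.61), TUBB4B (0.30) and TUBA1A (0.25) differed by less. TUBB (−0.09 ± 0.049, adjusted p = 0.106, edgeR) was not called with all libraries but was called without the first BE2C shAhR-2 library (−0.12, adjusted p = 0.0358, edgeR), the first Kelly control library or the third Kelly shAhR-2 library. TUBA1C with shAhR-1 (0.31 ± 0.13, adjusted p = 0.0664, edgeR) was likewise called without the third BE2C control library (0.47) or the first BE2C shAhR-1 library (0.41). TUBB2A and TUBB3 did not pass the threshold with either hairpin, with differences between −0.08 and 0.03 on the log2 scale.

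**Figure D3:**
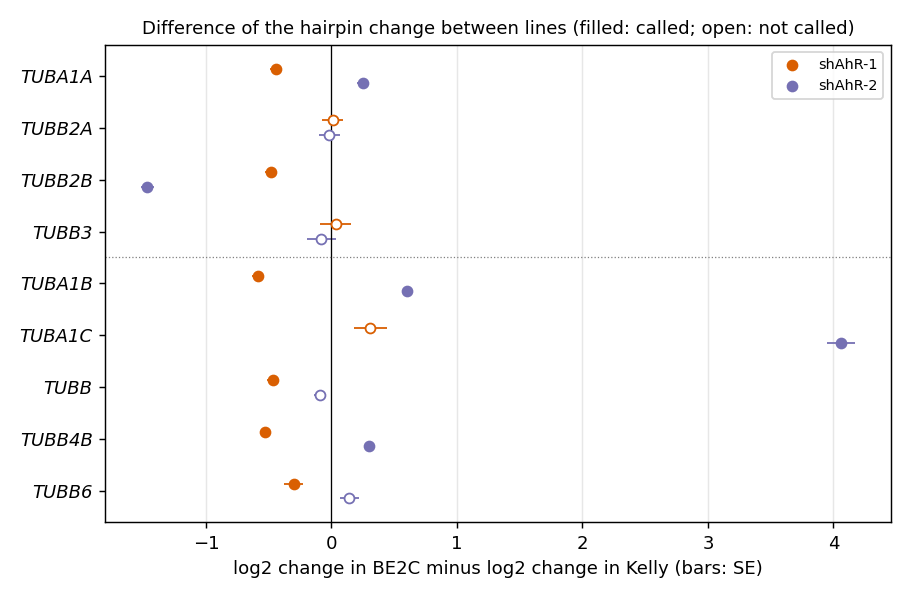
Difference of the log2 change between the lines, BE2C minus Kelly (points, bars are SE), for each isotype and hairpin, with filled points past an adjusted p of 0.05. TUBA1C with shAhR-2 stands at 4.06 and TUBB2B with shAhR-2 at −1.47, while TUBB2A and TUBB3 lie near 0 with both hairpins.

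The lines differed before any hairpin in TUBA1C above all. Scaled together, the BE2C controls had 4.02, 4.003 and 5.45 CPM of TUBA1C, against 115, 105 and 109.9 CPM in the Kelly controls, a log2 difference of −4.62 ± 0.082 (adjusted p = 9.31e-42, edgeR (quasi-likelihood, Benjamini-Hochberg adjusted)). No other member differed by more than 0.56 on that scale. Of the 9, 5 were called higher in BE2C and 3 lower, where 37.2% of genes were higher and 39.0% lower. TUBB2A (0.56 ± 0.060), TUBB6 (0.50 ± 0.053), TUBA1B (0.24 ± 0.029), TUBB4B (0.19 ± 0.029) and TUBA1A (0.16 ± 0.030) were higher in BE2C, and TUBB (−0.51 ± 0.034) and TUBB2B (−0.19 ± 0.035) lower. TUBB3 was not called (−0.05 ± 0.085, adjusted p = 0.632, edgeR), and its control libraries overlapped between the lines.

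Levels were set in order per kilobase of all annotated exons (CPM per kilobase). In both control groups the order began with TUBA1A, TUBB4B and TUBA1B, at 294, 205 and 128 CPM per kilobase in BE2C and 264, 181 and 109 CPM per kilobase in Kelly. In BE2C controls TUBB2B (62.3) and TUBB (60.3) followed with overlapping libraries, then TUBB2A (20.1), TUBB6 (12.6), TUBB3 (3.06) and TUBA1C (0.970). In Kelly controls the order went on with TUBB (85.8), TUBB2B (71.0), TUBA1C (23.8), TUBB2A (13.6), TUBB6 (8.92) and TUBB3 (3.16), with no overlap between neighbours. The order depends on the length used, and counts not divided by length gave another. Scaled together, TUBA1B averaged 458 CPM against 434 CPM for TUBB4B in BE2C controls. The Kelly control means were 389 and 381 CPM, with overlapping libraries. In BE2C controls TUBB (202 CPM) also lay above TUBB2B (137 CPM), and TUBB6 (51.9 CPM) above TUBB2A (34.7 CPM). With shAhR-2 in Kelly, TUBA1B dropped to the fifth place at 22.5 CPM per kilobase, and TUBB2B took the second at 84.2, with libraries overlapping those of TUBB4B at 83.6. TUBB3 stayed eighth or last in every group on this scale. The scale divides TUBB3 by 4430 bases of annotated exons, where its principal transcript has 1769. Places by the length of the principal transcript were not worked out, and that of TUBB3 could be higher.

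TUBA1A made up more of the alpha pool with each hairpin than in controls, in both lines. Of the alpha-tubulin counts per kilobase of all exons, TUBA1A took 75.05 ± 0.65% with shAhR-1 and 86.3 ± 0.18% with shAhR-2 in BE2C, against 69.5 ± 0.55% in controls (SD, n = 3 each). In Kelly it took 71.2 ± 0.56% in libraries labelled shAhR-1 and 88.3 ± 0.18% with shAhR-2, against 66.6 ± 0.53% in controls. No library with a hairpin overlapped the controls of its line. TUBA1A itself was not called higher with either hairpin in either line. Its log2 fold changes were −0.45 and −0.09 in BE2C and 0.00 and −0.35 in Kelly, with shAhR-1 first. TUBA1B was called lower in each of these comparisons. An exact two-sided permutation test of 3 against 3 libraries cannot go below 0.10, so no p is given for these shares.

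The neuronal share of the beta pool was higher than in controls in 3 of the 4 comparisons, all but BE2C with shAhR-2. TUBB2A, TUBB2B and TUBB3 took 27.9 ± 0.60% of the beta-tubulin counts per kilobase with shAhR-1 and 22.5 ± 0.36% with shAhR-2 in BE2C, against 23.5 ± 0.37% in controls. In Kelly they took 26.6 ± 0.45% in libraries labelled shAhR-1 and 41.8 ± 0.90% with shAhR-2, against 24.2 ± 0.30% in controls. With shAhR-1 none of these isotypes was itself called higher in either line. In Kelly with shAhR-2, TUBB2B (log2 0.24) and TUBB3 (0.60) were called higher and TUBB2A (−0.42) lower. The small difference in BE2C with shAhR-2 changed sign when counts were divided by the length of the principal transcript (21.1 ± 0.16% against 20.97 ± 0.37%). Without TUBB3, whose exons are shared with another gene, the neuronal share was 27.1 ± 0.60% and 20.8 ± 0.56% in BE2C against 22.8 ± 0.33% in controls, and 25.97 ± 0.46% and 40.6 ± 1.0% in Kelly against 23.5 ± 0.26%, with shAhR-1 first.

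**Figure D4:**
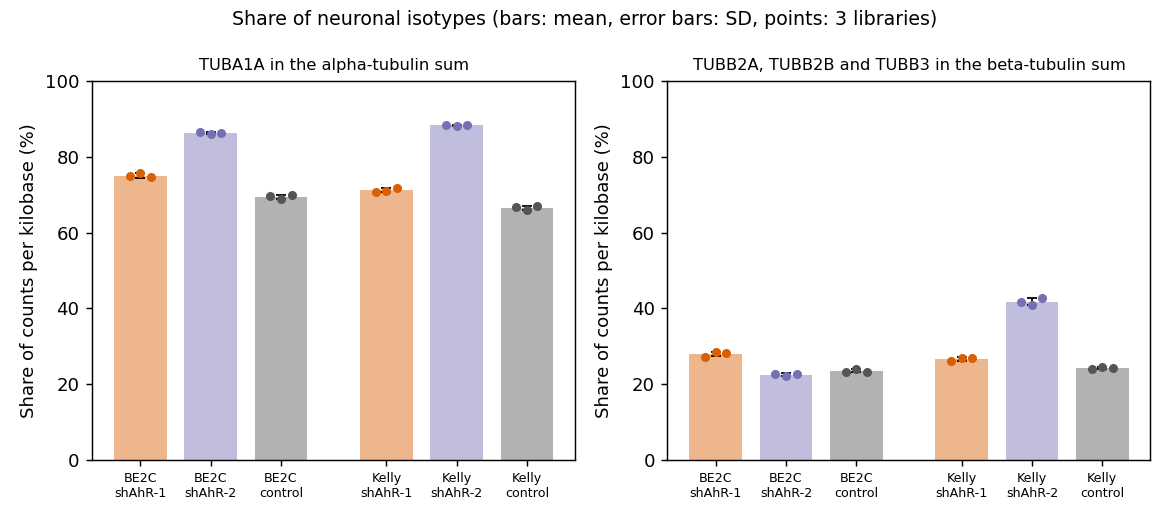
Share of neuronal isotypes in the alpha-tubulin sum (left) and the beta-tubulin sum (right), in percent of counts per kilobase of all exons, for each line and group (bars are means, error bars SD, points the 3 libraries). TUBA1A holds 86.3% of the alpha sum in BE2C with shAhR-2 and 88.3% in Kelly with shAhR-2, and the beta share stands apart in Kelly with shAhR-2 at 41.8%.

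Summed over all 9 members, tubulin transcripts took 1485 ± 20 CPM with shAhR-1 and 1567 ± 32 CPM with shAhR-2 in BE2C, against 2279 ± 67 CPM in controls. In Kelly the sum was 2125 ± 17 CPM in libraries labelled shAhR-1 and 1434 ± 16 CPM with shAhR-2, against 2363 ± 79 CPM in controls. The ratios to control were 0.652 and 0.688 in BE2C and 0.8996 and 0.607 in Kelly. Summing TUBB2A with TUBB2B, which removes any exchange of reads between them, gave ratios of 0.711 with shAhR-1 and 0.497 with shAhR-2 in BE2C, and of 0.942 and 1.12 in Kelly. The 51 rows of alpha- and beta-tubulin pseudogenes held 0.658 to 1.21% as many counts as the members.

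Other genes of tubulin supply were examined from lists. Of the other tubulins, 8 were tested in BE2C and 9 in Kelly. In BE2C, 1 rose and 2 fell with shAhR-1, where 25.2% of all genes rose and 27.1% fell. With shAhR-2 in BE2C, 3 rose and 3 fell, near the 38.0% and 37.2% of all genes. In Kelly, 1 rose and 3 fell in libraries labelled shAhR-1, against 29.6% and 31.0% of all genes, and 4 rose and 3 fell with shAhR-2, against 37.2% and 38.2%. Counts this small are given as a description. TUBG1, the gamma-tubulin that seeds microtubules, changed by −0.48 and −1.10 on the log2 scale in BE2C (shAhR-1 first) and by −0.28 and −1.03 in Kelly. TUBD1, the delta-tubulin of centrioles, had −0.40 and −0.53 in BE2C and −0.44 and −0.63 in Kelly, all 8 values past the threshold.

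Newly made tubulin is folded by the prefoldin and CCT complexes and then joined to its partner by the TBC cofactors. Of these 21 folding genes, 15 fell and none rose with shAhR-1 in BE2C, where 27.1% of all genes fell and 25.2% rose. With shAhR-2 in BE2C, 18 fell and 3 rose, against 37.2% and 38.0% of all genes. In Kelly, 12 fell and 3 rose in libraries labelled shAhR-1, against 31.0% and 29.6% of all genes. With shAhR-2 in Kelly, 12 fell and 8 rose, and the share that rose was near the 37.2% of all genes, with 38.2% falling. The list's median log2 fold change was −0.18 and −0.44 in BE2C and −0.14 and −0.19 in Kelly, with shAhR-1 first. The CCT subunit genes CCT3 (−0.57 and −0.30) and CCT4 (−0.35 and −0.44) fell with both hairpins in BE2C. In Kelly CCT3 changed by −0.91 in libraries labelled shAhR-1 and by 0.19 with shAhR-2, and CCT4 by −0.43 and 0.26, all 4 called. TBCD, a cofactor that joins the dimer, fell in Kelly (−0.26 and −0.71) and BE2C (−0.13 and −0.37), as did the prefoldin gene PFDN6 (−0.46 and −0.29 in Kelly, −0.24 and −0.66 in BE2C).

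Free tubulin is known to trigger decay of tubulin mRNA through TTC5, which binds nascent tubulin, and its partners SCAPER and CNOT11. In BE2C, TTC5 rose with shAhR-1 (log2 0.31 ± 0.095) and with shAhR-2 (0.94 ± 0.092), although the first call was lost without the second control library (0.17, adjusted p = 0.101, the Benjamini-Hochberg adjusted quasi-likelihood test of edgeR). In Kelly TTC5 changed by −0.72 in libraries labelled shAhR-1 and by 0.35 with shAhR-2. SCAPER changed there by −0.43 and 0.77 and CNOT11 by 0.35 and −0.23, each value called. In BE2C neither SCAPER (−0.16) nor CNOT11 (0.11) was called with shAhR-1. BE2C with shAhR-2 had SCAPER higher (0.18) and CNOT11 lower (−0.32).

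The genes whose pattern was most like that of 3 members were found by Pearson's r of log2 CPM, centred on each line, over the 18 libraries and 9808 genes. The libraries fall into groups that set these values, so r is a description with no test. TUBB was closest to DDX39A (r = 0.993), SMC3 (0.993) and INCENP (0.992). TUBB3 was closest to N4BP1 (0.976), C2orf91 (0.976) and PRTG (0.973), and TUBA1A to CDH11 (0.942), NEURL1B (0.936) and ENOX2 (0.936).

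Members also overlap other annotated genes on the opposite strand, which matters only if the authors counted without strand, a setting not given in the sources used here. TUBA1B shares 1309 exonic bases with the antisense gene AC011603.2, TUBA1C shares 666 with AC125611.3, and TUBB shares 538 with AL662797.1. None of these antisense genes has a row of that name in the counts. TUBA1A shares 490 with TUBA1C, TUBB6 shares 837 with AFG3L2, TUBB2B shares 174 with PSMG4, and TUBB4B shares 124 with FAM166A. The overlaps of TUBB6 and TUBB2B lie outside their principal transcripts. Stretches of 100 bases found unchanged in another gene, on either strand, made up 71.1% of the TUBA1B principal transcript. For TUBA1B, 65.4% were found in the antisense gene AC011603.2 and 32.1% in other members. The share was 89.0% for TUBB3, all of it in AC092143.1, 56.35% for TUBB2A, 46.2% for TUBB2B and 29.6% for TUBA1C. It was 26.6% for TUBA1A, 20.4% for TUBB, 4.49% for TUBB4B and 0 for TUBB6, the last 2 being the lowest by this measure.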

How the data were processed

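Per the file headers, the deposited values are raw counts per gene in 2 tables, 1 for each line, made by the authors. CASAVA 1.8.2, STAR 2.7.9a and the build GRCh38.p7 are named, per the submitters' processing notes. Total RNA came from miRNeasy columns and went into ribosomal-depleted HyperPrep libraries, per the labels' protocols. Not given in the sources used here: the counting tool, its annotation and strand setting, the length of reads and the sequence of either hairpin. Even numbers made up 68.3 to 72.5% of the counts from 1 to 20 in a library, so halved counts were run as an alternative.

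Each line was fitted alone, 3 groups of 3 libraries, with edgeR 4.0.16 in R 4.3.3: filterByExpr, TMM, glmQLFit and glmQLFTest. Benjamini-Hochberg adjustment ran over 15732 genes in BE2C and 15871 in Kelly, with calls at an adjusted p below 0.05. Differences between lines came from 1 fit of all 18 libraries (17136 genes). SE is the log2 fold change over the root of F. CPM uses TMM library sizes. Libraries of 32799682 to 45469353 counts gave the members 452 (TUBA1C, BE2C with shAhR-1) to 126473 (TUBA1A, BE2C with shAhR-2) counts per group of 3. The scripts were tested on simulated data.

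Members and lists were chosen with earlier results of these data known. All 9 members are named in every comparison. Of each related list, up to 2 genes per line and direction are named, those with the largest smaller change among genes called the same way with both hairpins, each with its values in the other line where these are printed, and also SCAPER and CNOT11, picked after their values were seen. Alternatives were RLE size factors, no filter, a replicate block, a filter at mean CPM 1, halved counts, a Wald test in DESeq2 1.42.0, no mitochondrial genes, a fit of only the groups compared, leaving out each library, and other lengths for shares. Locations are from GENCODE 29 and promoter windows from RefSeq (GRCh38.p14). Protein sequences were not used here.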

Additional observations from a re-analysis of the deposited data

Results flagged for a closer look

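The values below are the members whose change with a hairpin differed between the lines by edgeR's interaction test, as the log2 change in BE2C less that in Kelly. With shAhR-1 the change was lower in BE2C for TUBA1A (−0.44), TUBA1B (−0.59), TUBB (−0.46), TUBB2B (−0.48), TUBB4B (−0.53) and TUBB6 (−0.30). The Kelly libraries go by the label shAhR-1, and AHR was not shown to fall in them.

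With shAhR-2 the change was higher in BE2C for TUBA1C (4.06), TUBA1B (0.61), TUBB4B (0.30) and TUBA1A (0.25), and lower for TUBB2B (−1.47). For TUBA1C and TUBB2B the change itself had opposite signs in the 2 lines, and all 3 shAhR-2 libraries lay on opposite sides of their controls. The mitochondrial share of counts was 20.5 to 25.1% in BE2C with shAhR-2, against 18.8 to 19.4% in controls. Its highest value, 25.1%, was that of the first BE2C shAhR-2 library. In Kelly with shAhR-2 the share was 15.2 to 15.8%, overlapping the 14.5 to 15.6% of controls. The calls for these 5 genes were kept when mitochondrial genes were left out.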

How the results depend on the processing

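Of 1215 member fold changes over the alternatives, 1176 kept direction and side of the threshold, 12 lost the call, 10 gained it and 17 changed sign. The values that changed sign lay between −0.0379 and 0.0418. TUBA1A in Kelly libraries labelled shAhR-1 was −0.0069 with no filter and −0.0005 with DESeq2. The TUBB2A difference between lines with shAhR-1 was −0.0118 with RLE size factors, −0.021 with no filter, −0.0154 with a filter at mean CPM 1 and −0.0116 with DESeq2. The TUBB3 difference between controls was 0.0418 with no filter and 0.0242 with that filter.

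Leaving out 1 library gave −0.0379 to 0.0249 for TUBA1A in Kelly with shAhR-1, −0.0155 to 0.0615 for TUBB2A and −0.005 to 0.0792 for TUBB3 between lines with shAhR-1, −0.0459 to 0.0052 for TUBB2A between lines with shAhR-2, and −0.0893 to 0.0027 for TUBB3 between controls. It gave 3 to 5 members lower with shAhR-1 than shAhR-2 in BE2C, 0 to 1 higher between lines with shAhR-1 and 1 to 2 lower between lines with shAhR-2; that count was also 2 with no filter and with the filter at mean CPM 1, where TUBB was added (−0.17 and −0.14).

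The neuronal share less control, in percentage points, moved by more than the library spread in some cases. With plain counts it was 3.84 (beta, shAhR-1) and −0.28 (beta, shAhR-2) in BE2C, and 22.9 (alpha) and 16.5 (beta) in Kelly with shAhR-2. Per kilobase of the principal transcript it was 18.97 (alpha) and 0.15 (beta) in BE2C with shAhR-2 and 23.6 (alpha) in Kelly. The cause of these differences was not tested beyond the lengths themselves.

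Same-numbered libraries did not deviate together (r from −0.09 to 0.07), and not every library correlated best with its own number. These values cannot show whether same-numbered libraries were prepared together, which the labels do not say. With a replicate block, TUBB3 in BE2C with shAhR-1 was called (−0.20, adjusted p = 0.0474, edgeR), and no other member's call changed. The median log2 of all genes in BE2C with shAhR-2 was 0.03, and 0.13 with no filter and 0.16 with DESeq2. AHR counts were too low in BE2C to show a fall, and TUBA1C in BE2C and TUBB3 had the fewest counts and widest errors.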

Other observations

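Genes that modify tubulin or act at microtubule ends were described on lists chosen with earlier results of these data known. Of 20 tested modification genes, 8 rose and 7 fell with shAhR-1 in BE2C, where 25.2% of all genes rose and 27.1% fell. With shAhR-2 in BE2C 8 rose and 11 fell, against 38.0% and 37.2% of all genes. In Kelly 6 rose and 8 fell in libraries labelled shAhR-1, against 29.6% and 31.0%, and 6 rose and 10 fell with shAhR-2, against 37.2% and 38.2%. Several of these shares lie near those of all genes. TTLL3, a glycine ligase of tubulin, rose by 0.61 and 2.29 on the log2 scale in BE2C (shAhR-1 first) and by 0.41 and 2.53 in Kelly. VASH1, which removes the terminal tyrosine of alpha-tubulin, rose in BE2C (0.63 and 2.03), while in Kelly it rose in libraries labelled shAhR-1 (0.53) and was not called with shAhR-2 (−0.03). TTLL11, a glutamate ligase, rose in Kelly (0.48 and 0.70), while in BE2C it rose with shAhR-1 (0.59) and fell with shAhR-2 (−1.08). TTLL12 (−0.44 and −1.42) and the deglutamylase gene AGTPBP1 (−0.56 and −0.47) fell in BE2C, and both also fell in Kelly (−0.41 and −1.17 for TTLL12, −0.48 and −0.14 for AGTPBP1). AGBL5, also a deglutamylase gene, fell in Kelly (−0.53 and −0.59), and in BE2C it was not called with shAhR-1 (−0.05) and fell with shAhR-2 (−0.29). KIAA0895L, which encodes the detyrosinase MATCAP1, rose with both hairpins in BE2C (0.40 and 0.39) and fell with both in Kelly (−0.45 and −0.45).

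Of 25 genes of microtubule nucleation and ends, 8 rose and 12 fell with shAhR-1 in BE2C, where 25.2% of all genes rose and 27.1% fell. With shAhR-2 in BE2C 5 rose and 19 fell, against 38.0% and 37.2% of all genes. In Kelly 7 rose and 10 fell in libraries labelled shAhR-1, against 29.6% and 31.0%, and 8 rose and 13 fell with shAhR-2, against 37.2% and 38.2%. Several of these shares, the Kelly shares that rose among them, lie near those of all genes. CAMSAP2, which caps minus ends, rose in BE2C (0.29 and 0.77) and Kelly (0.67 and 1.06). MAPRE3, a plus-end binding protein of neurons, rose in BE2C (0.36 and 1.23) and Kelly (0.29 and 1.34). CKAP5, a spindle microtubule polymerase, fell in BE2C (−0.96 and −1.77) and Kelly (−0.72 and −1.58). KIF2C, a mitotic depolymerase, fell in BE2C (−1.02 and −1.65) and Kelly (−0.15 and −2.30), and CDK5RAP2, a centrosome protein, fell in BE2C (−0.58 and −0.95) and Kelly (−0.41 and −0.92).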
